A study of Drosophila melanogaster with 24 samples.

Results

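The 10 genes described here encode ion channels that set the electrical excitability of neurons and that are known from work on the firing of fly clock neurons. They were taken by name from the table of UMI counts (unique molecular identifiers, which count captured transcripts) as para, na, cac, Ih, Sh, Shab, Shal, Shaw, slo and Irk1, 10 of its 15610 genes. All 10 were found and passed the filter on low counts in every comparison. A neuron fires when inward sodium and calcium currents outweigh outward potassium currents. In fly clock neurons this balance shifts over the day, with a sodium leak current that brings the cell towards firing and potassium currents that silence it. The inward group here is para (the voltage-gated sodium channel of the action potential), na (the sodium leak channel narrow abdomen, the fly relative of NALCN), cac (the pore of the presynaptic voltage-gated calcium channel) and Ih (the channel of the hyperpolarization-activated current). The outward group is Sh, Shab, Shal and Shaw, the pores of voltage-gated potassium channels, with slo, the pore of the calcium-activated potassium channel. Irk1 encodes an inwardly rectifying potassium channel, a class that helps to set the resting potential.

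RNA was measured in 24 libraries of sorted, GFP-labelled neurons from the brains of male flies in 8 groups of 3, all collected at ZT14. All groups carried the CLK856-Gal4 driver, active in clock neurons, with UAS-Cas9 and UAS-eGFP. The control (Cas9) had no guide RNA construct, and the mutants added UAS-3XgRNA-Drp1, UAS-3XgRNA-Marf or UAS-3XgRNA-Opa1 (Drp1-mut, Marf-mut, Opa1-mut), which target the gene of mitochondrial fission, of outer membrane fusion or of inner membrane fusion. Flies were about 15 days old (young) or about 35 days old (old). The question put to the channel genes is whether their transcripts differed between a mutant and Cas9 at each age. The 3 libraries of a group, about 1000 cells each, were sorted from the same suspension of 80 to 100 brains, so the spread between them is not a spread between animals, and a difference of genotype or age cannot be told apart from one between suspensions.

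Libraries held 684175 to 2889269 UMIs. Transcripts of a targeted gene do not show whether it was cut in a given cell. Drp1 stood at 65.9 to 97.9 CPM (UMI counts scaled to a fixed library total by the TMM method) in old Drp1-mut against 153 to 165 in old Cas9, and was called lower (log2 fold change -0.89, SE 0.16, adjusted p = 0.00619). Opa1 was called lower in old Opa1-mut (-0.68, SE 0.12, adjusted p = 0.000363), whereas Marf did not pass in the old Marf mutant (-0.27, SE 0.12, adjusted p = 0.228). No target was called in young flies, with Drp1 at -0.53, Marf at -0.24 and Opa1 at -0.46. Markers of clock neurons, of neurons and of glia were detected in each group. The summed markers of fat body and hemocytes reached at most 122 CPM and those of photoreceptors at most 81.2, both in young Drp1-mut, and 1 to 4 of the 5 genes of the fat body and hemocyte list had no UMI in each library. In this material fewer cells of a type and less RNA per cell cannot be told apart.

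Several members lie on the X chromosome. In the release 6 annotation, para spans X:16455027-16533096 on the minus strand, na X:14266367-14277416 on the plus strand, cac X:11931280-11985087 on the minus strand and Sh X:17924307-18063247 on the minus strand. Ih spans 2R:14276130-14300095 (plus), Shab 3L:2895017-2959579 (plus), Shal 3L:19566851-19584568 (minus) and Shaw 2L:3718185-3729145 (plus). On 3R, slo spans 24662491-24711595 and Irk1 23168317-23185642, both on the plus strand. Irk1 shares exons with other annotated genes. CG46310 lies on its strand and all of the 3202 exon bases of CG46310 are also exon of Irk1, but CG46310 has no row of its own in the count table. The gene cnc, on the opposite strand, shares 63 exon bases with Irk1 at their 3′ ends. Whether counting used the strand is not given in the sources used here, so the reads behind Irk1 could in part come from either neighbour. The protein-coding genes nested within para, Sh and Shab share 0 exon bases with them.

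Per library, a member was counted by 22 UMIs (the lowest value for Irk1) to 1078 UMIs (the highest for Ih). Counting error alone gave a coefficient of variation of 3.97% to 18.3% between the libraries of a group. The spread between the 3 libraries was larger than counting error in 56 of the 80 pairs of member and group, with a median coefficient of variation of 9.89% against 5.59% from counting. Old Drp1-mut was the most variable group for these genes, with a median of 22.7% and a highest value of 41.4% for Ih. Some libraries stand apart. Replicate 3 of old Drp1-mut, the shallowest of all 24, was the highest of its group for 8 of the 10 members, as was replicate 2 of young Drp1-mut. Replicate 3 of young Marf-mut, of old Cas9 and of old Opa1-mut were each the highest of their group for 7 members. The values of the members moved most by leaving out replicate 3 of old Drp1-mut or of young Marf-mut are given with and without that library. Over the 8 groups, old Opa1-mut had the lowest mean for 7 of the 10 members and young Marf-mut the highest mean for 6.

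**Figure D1:**
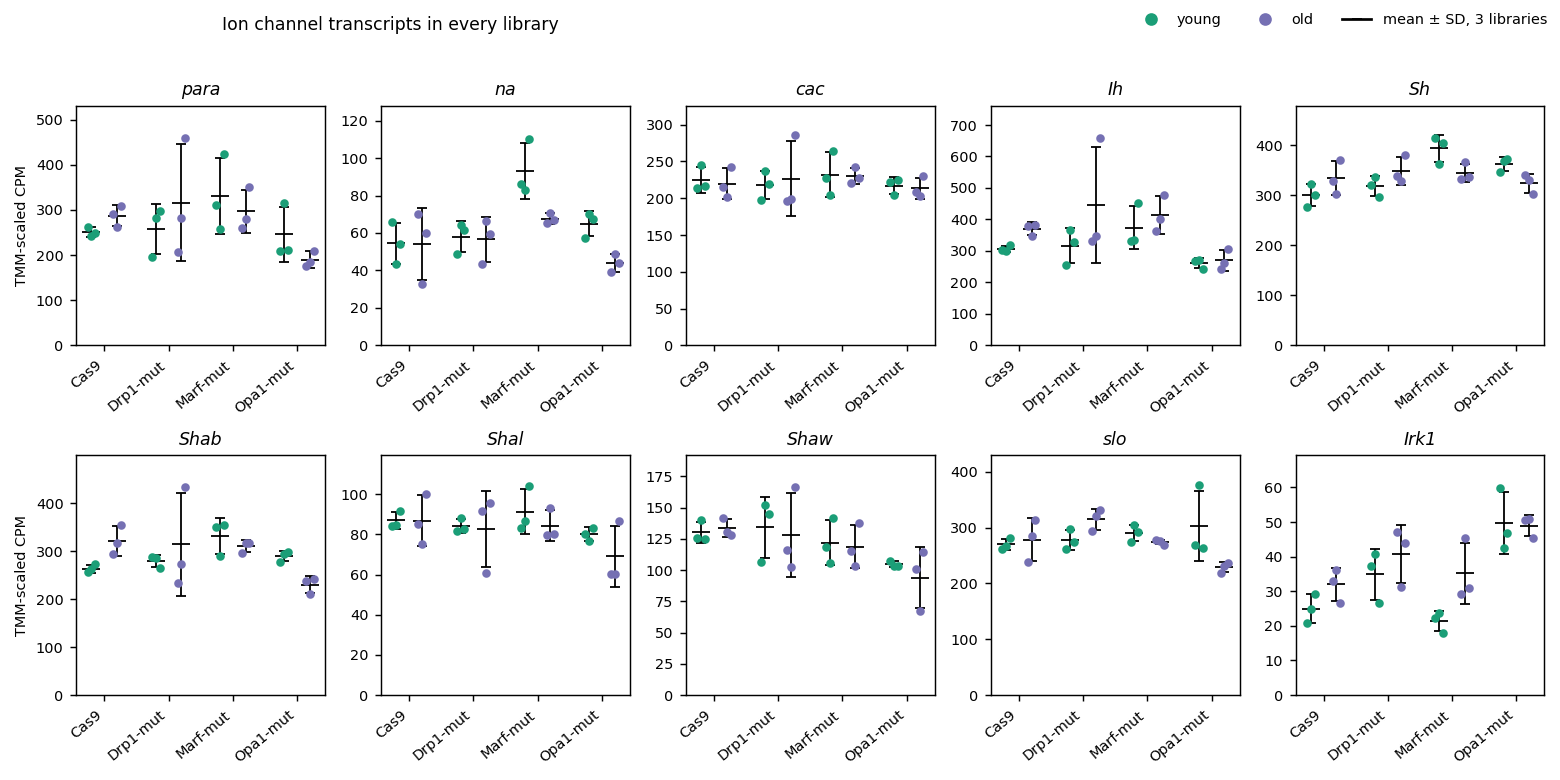
Level of each of the 10 channel genes in every library, in TMM-scaled CPM on a linear axis from 0, by genotype and age (points, libraries; bars, mean ± SD of 3 libraries). Irk1 sits between 42.6 and 59.7 CPM in all 6 Opa1-mut libraries and between 20.8 and 36.1 in the 6 Cas9 libraries, and cac keeps group means of 213.5 to 232 CPM.

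Taken over all 24 libraries, a test of any difference among the 8 groups called 4 members, na (adjusted p = 0.00367), Ih (0.0318), Sh (0.0484) and Irk1 (0.000421), where 22% of all genes tested were called. Shab (0.0566) and slo (0.0662) did not pass. The calcium channel gene cac had the smallest range of group means among the members, 213.5 to 232 CPM, and an unadjusted p of 0.966. Of the 4 calls, those of na and Irk1 held whichever single library was left out. Those of Ih and Sh both ended without replicate 1 of young Cas9, replicates 2 or 3 of old Marf-mut, or replicates 1 or 2 of old Opa1-mut, each of which left 2 members called, and without replicate 3 of old Drp1-mut 5 were called, Shab among them.

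The comparison with the most members called was old Opa1-mut against old Cas9. There 5 of the 10 were called, 4 lower and 1 higher, where 13.2% of all genes tested were called (5.65% lower and 7.54% higher). The sodium channel gene para fell by 34.2%, the hyperpolarization-activated channel gene Ih fell by 27.5%, the potassium channel genes Shab and Shaw fell by 28.8% and fell by 29.7%, and Irk1 rose 1.51-fold. The median log2 fold change of the 10 members was -0.32 against 0.00 for all genes tested, and 9 of the 10 were negative (7 of 10 with scaling by total count, which moved the median of all genes to 0.07).

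Of the inward channels, para stood at 175, 186 and 209.9 CPM in the 3 old Opa1-mut libraries and at 291, 262 and 308 in old Cas9. All 3 mutant libraries lay below all 3 controls, and para fell (log2 fold change -0.60, SE 0.10, adjusted p = 0.000179). Ih stood at 242, 262 and 307 CPM in old Opa1-mut and at 380.5, 347 and 384 in old Cas9, again without overlap, and fell (-0.46, SE 0.09, adjusted p = 0.00118). The leak channel gene na (43.9 ± 4.85 against 54.3 ± 19.2 CPM, mean ± SD, n = 3) and the calcium channel gene cac (214 ± 14.4 against 219.8 ± 21.1 CPM) overlapped between the groups and were not called (-0.31, SE 0.22, adjusted p = 0.403 for na and -0.05, SE 0.10, adjusted p = 0.807 for cac).

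Of the potassium channels, Shab, which carries a delayed rectifier current, stood at 237, 211 and 243 CPM in old Opa1-mut and at 293, 317 and 353 in old Cas9. The groups did not overlap and Shab fell (-0.49, SE 0.09, adjusted p = 0.000927). Shaw, whose channel in flies opens near the resting potential and acts much like a leak, stood at 101, 67.0 and 114 CPM in old Opa1-mut and at 142, 131 and 128 in old Cas9. It fell (-0.51, SE 0.16, adjusted p = 0.0361), with replicate 2 of the mutant far below the other two. The calcium-activated channel gene slo stood at 219, 232 and 237 CPM in the mutant and 238, 285 and 313 in the control, also without overlap, but was not called (-0.29, SE 0.10, adjusted p = 0.0613). It was called without replicate 1 of old Cas9 (-0.40, adjusted p = 0.0102) and stood at -0.20, adjusted p = 0.231, without replicate 3 of old Cas9. The A-type channel genes Sh (-0.05, SE 0.09, adjusted p = 0.769) and Shal (-0.32, SE 0.16, adjusted p = 0.222) were not called. Counted by overlap, 5 members lay wholly below and 1 wholly above the control, where 13.2% of all genes tested lay wholly below and 16.9% wholly above.

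Irk1 was the member that went the other way. It stood at 50.7, 50.8 and 45.4 CPM in old Opa1-mut and at 33.1, 36.1 and 26.7 in old Cas9, with every mutant library above every control (0.59, SE 0.18, adjusted p = 0.0371). The neighbour cnc, a stress-response transcription factor gene, rose as well (0.55, SE 0.16, adjusted p = 0.0259), at 77.4, 88.0 and 90.9 CPM against 66.2, 44.1 and 64.4, and its part in the Irk1 value was not tested.

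The calls for para, Ih and Shab held whichever single library was left out. They were not called in every fit, since with all 24 libraries in a single fit para (-0.61, adjusted p = 0.164) and Ih (-0.47, adjusted p = 0.171) were not called, and with log2 depth as a covariate Shab was not (-0.44, adjusted p = 0.231). Shaw lost its call in 5 of 6 omissions, all but that of replicate 3 of old Opa1-mut (adjusted p = 0.0623 to 0.180, with a log2 fold change of -0.32 without replicate 2 of old Opa1-mut). It was also not called with total count scaling (-0.44, adjusted p = 0.0850), by DESeq2 (-0.52, adjusted p = 0.112), with all 24 libraries in a single fit (-0.51, adjusted p = 0.0583) or with log2 depth as a covariate (-0.93, adjusted p = 0.0516). Irk1 lost its call in 5 of 6 omissions, all but that of replicate 2 of old Cas9 (log2 fold change 0.49 to 0.65, adjusted p = 0.0551 to 0.127). Nor was it called by DESeq2 (0.59, adjusted p = 0.265), with all 24 libraries in a single fit (0.59, adjusted p = 0.0904) or with log2 depth as a covariate (0.61, adjusted p = 0.476).

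Some general neuronal genes were also lower in these libraries. The summed level of the neuronal markers elav, nSyb and Syt1 was 1456 to 1524 CPM in old Opa1-mut and 1722 to 1982 in old Cas9, without overlap. The synaptic vesicle gene Syt1 fell (-0.39, SE 0.10, adjusted p = 0.00921). Levels of nSyb lay wholly lower (949, 916 and 907 CPM against 1083, 1042 and 1139). Levels of elav overlapped (53.5, 56.9 and 83.0 CPM against 80.4, 71.4 and 83.7). The summed markers of other peptide neurons (Hug, Ilp2 and Eh) were 3541 to 5423 CPM against 8101 to 8609. The clock neuron markers were 15498 to 22883 against 13702 to 15646 CPM and the glial markers 158 to 223 against 105 to 229. None of these lists had a gene at 0 in these 6 libraries. The part of cell makeup in the channel values was not tested.

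**Figure D2:**
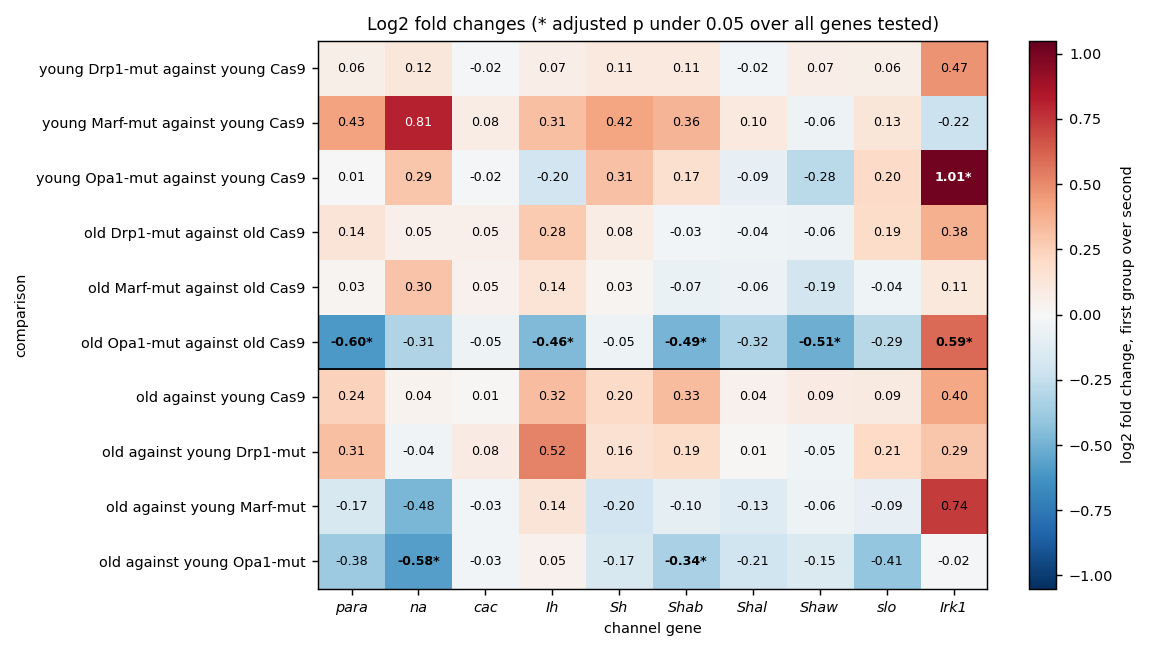
Log2 fold change (colour and printed value, edgeR) of each channel gene (columns) in each mutant against Cas9 at each age and, under the black line, in old against young flies of each genotype (rows); asterisks mark adjusted p under 0.05 over all genes tested. In old Opa1-mut para, Ih, Shab and Shaw lie between -0.46 and -0.60 and Irk1 at 0.59.

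In young Opa1-mut against young Cas9, Irk1 was the 1 member called, where 2.94% of all genes tested were called (2.27% higher). Irk1 stood at 59.7, 42.6 and 46.8 CPM in the 3 young Opa1-mut libraries and at 20.8, 24.8 and 29.3 in young Cas9. Every mutant library lay above every control, and Irk1 rose 2.02-fold (log2 fold change 1.01, SE 0.20, adjusted p = 0.0148). The call ended without replicate 1 of young Cas9 (0.88, adjusted p = 0.0596) and without replicate 1 of young Opa1-mut (0.87, adjusted p = 0.0860), and cnc was not called here (0.28, SE 0.18, adjusted p = 0.462). Of the 6 glial markers 4 were lower and 2 higher in the same libraries, and 2 were called, alrm (-0.89, SE 0.21, adjusted p = 0.0397) and Gat (-0.99, SE 0.21, adjusted p = 0.0213), whereas wrapper had a value of 0.86 (SE 0.37, adjusted p = 0.230). The glial markers summed to 115.1 to 132 CPM against 138 to 203 and the neuronal markers summed to 1523 to 1735 CPM against 1602 to 1729.9. Their part in the Irk1 value was not tested.

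The other 9 members were not called in young Opa1-mut. The closest was Sh, the Shaker channel gene, at 347, 369 and 373 CPM against 277, 323 and 302 in young Cas9, with every mutant library above the controls (0.31, SE 0.10, adjusted p = 0.0982). It was called without replicate 2 of young Cas9 (0.38, adjusted p = 0.0478). Ih (267, 272 and 243 CPM against 303, 299.9 and 317) and Shaw (107, 103 and 104 CPM against 126, 140.2 and 125) lay wholly below the control but were not called (-0.20, SE 0.09, adjusted p = 0.264 for Ih and -0.28, SE 0.13, adjusted p = 0.259 for Shaw). The action potential channel gene para stood at 209, 316 and 212 CPM in the mutant, of which replicate 2 lay above and the other two below the 3 controls (0.01, SE 0.15, and -0.23 without replicate 2). By overlap, 3 members (Sh, Shab and Irk1) lay wholly above and 3 (Ih, Shal and Shaw) wholly below young Cas9, where 10.2% and 13.7% of all genes tested did so.

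Whether the Opa1-mut effect itself differed between the ages was tested with the interaction of age and genotype over 12 libraries. All 10 members had a negative difference, old minus young, with a median of -0.39 against 0.02 for all genes tested. With scaling by total count 9 were negative, and the median of all genes moved to 0.12. A negative sign was not particular to Opa1-mut. Against the same Cas9 libraries, the Marf-mut effect was negative for 9 of the 10 members and the Drp1-mut effect for 6. All 10 members were higher in old than in young Cas9 (median 0.15), which enters each of these differences. For the Opa1-mut effect Shab was the 1 member called, where 5.63% of all genes tested were called (3.27% lower). The Opa1-mut value of Shab was 0.17 in young and -0.49 in old flies, a difference of -0.66 (SE 0.13, adjusted p = 0.00512). It held without any single one of the 12 libraries. It ended with all 24 libraries in a single fit (-0.66, adjusted p = 0.0659), with log2 depth as a covariate (-0.69, adjusted p = 0.558) and with the long-transcript index as a covariate (-0.51, adjusted p = 0.0790). That index is the mean log2 deviation in a library of 269 other genes with a longest annotated transcript of at least 8000 bases. The difference for para was nearly as large but not called (-0.61, SE 0.19, adjusted p = 0.0677), and was called without replicate 1 (-0.71) or replicate 3 (-0.71) of young Opa1-mut. Without replicate 2 of young Opa1-mut, which held the highest level of both genes in its group, para stood at -0.37, adjusted p = 0.149, and slo at -0.29, adjusted p = 0.308. With every library the values for slo (-0.49, SE 0.18, adjusted p = 0.123), Sh (-0.36, SE 0.13, adjusted p = 0.118) and Irk1 (-0.42, SE 0.27, adjusted p = 0.400) did not pass.

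**Figure D3:**
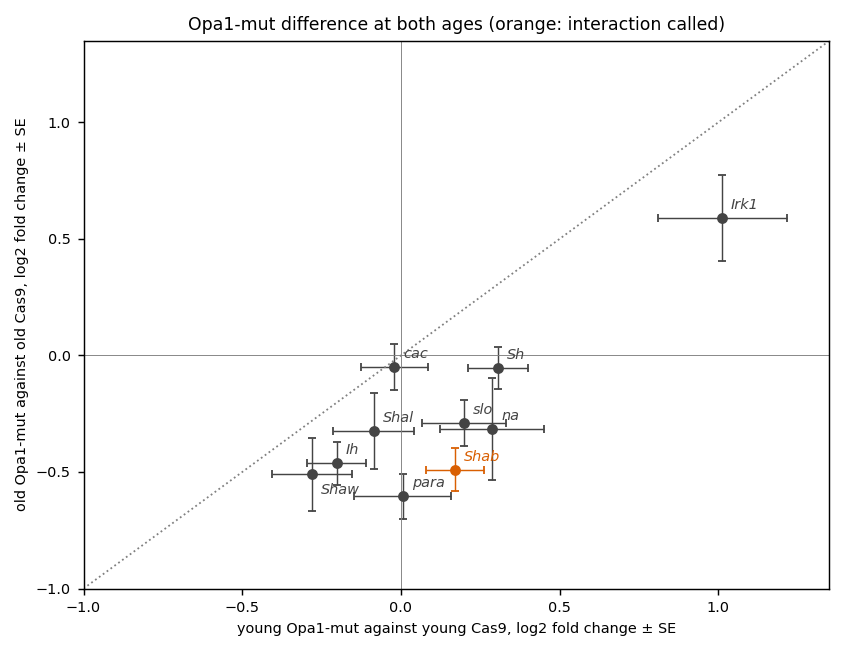
Log2 fold change of each channel gene in Opa1-mut against Cas9 in young flies (x axis) and old flies (y axis), with bars of ± 1 SE; the diagonal marks equal values and orange the gene whose difference between the ages was called. Every gene lies below the diagonal, with Shab at 0.17 and -0.49 and Irk1 at 1.01 and 0.59, and the 2 axes use different control libraries.

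Old Opa1-mut was also compared with young Opa1-mut. Called were 2 members, both lower, where 12.4% of all genes tested were called (4.78% lower). The leak channel gene na stood at 39.1, 48.8 and 43.9 CPM in old and 57.4, 69.9 and 67.6 in young Opa1-mut, without overlap, and fell by 32.9% (log2 fold change -0.58, SE 0.15, adjusted p = 0.0188). Shab stood at 237, 211 and 243 CPM in old and 278, 294 and 297 in young Opa1-mut, without overlap, and fell by 20.8% (-0.34, SE 0.08, adjusted p = 0.0136). Slo lay wholly lower in old libraries and was not called (-0.41, SE 0.14, adjusted p = 0.0900), although it was called without replicate 1 or replicate 3 of young Opa1-mut (-0.50 and -0.50). Without replicate 2 of young Opa1-mut, which held 376 CPM, its value was -0.22, adjusted p = 0.132. Irk1 was not called between the ages (49.7 ± 8.93 and 49.0 ± 3.07 CPM, -0.02, SE 0.16, adjusted p = 0.951). By overlap, 4 members (na, Sh, Shab and slo) lay wholly lower in old flies, where 13.7% of all genes tested did. The na call ended without replicates 2 or 3 of young Opa1-mut or replicates 1 or 3 of old Opa1-mut (-0.50 to -0.58, adjusted p = 0.0550 to 0.0874). The Shab call ended without replicate 3 of young Opa1-mut (-0.32, adjusted p = 0.0599) or replicate 2 of old Opa1-mut (-0.28, adjusted p = 0.0901). Of the 5 glial markers tested 2 rose between the same groups, alrm (1.01, SE 0.20, adjusted p = 0.00340) and Gat (0.94, SE 0.21, adjusted p = 0.00740), and the other 3 were not called. The glial markers summed to 115.1 to 132 CPM in young and 158 to 223 in old Opa1-mut, and the neuronal markers summed to 1523 to 1735 CPM in young and 1456 to 1524 in old Opa1-mut. Markers of other peptide neurons summed to 2179 to 3083 CPM in young and 3541 to 5423 in old Opa1-mut, without overlap. Those of clock neurons overlapped (14177 to 17884 in young and 15498 to 22883 in old). The part of these markers was not tested.

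No member was called in young Marf-mut against young Cas9, where 0.346% of all genes tested were called. An unadjusted p under 0.05 was reached by 5 members, all higher, and by 705 of all 7229 genes tested, 405 of them higher. DESeq2 called 1 member. The leak channel gene na came closest. It stood at 85.9, 82.9 and 110.3 CPM in young Marf-mut and at 65.7, 43.7 and 54.0 in young Cas9, a 1.75-fold higher level without overlap (log2 fold change 0.81, SE 0.17, adjusted p = 0.0540). That gene was called by DESeq2 (0.79, adjusted p = 0.00686), without the filter on low counts (0.79, adjusted p = 0.000659) and with all 24 libraries in a single fit (0.79, adjusted p = 0.0435). Sh stood at 414, 363 and 404 CPM in young Marf-mut (0.42, SE 0.12, adjusted p = 0.201) and Shab at 349.9, 289 and 355 CPM (0.36, SE 0.12, adjusted p = 0.292), both wholly above young Cas9. Para (0.43, SE 0.15, adjusted p = 0.334) and Ih (0.31, SE 0.13, adjusted p = 0.449) had values in the same direction. By overlap, 4 members (na, Ih, Sh and Shab) lay wholly above the control and 0 wholly below, where 6.42% of all genes tested lay wholly above and 8.92% wholly below.

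Without replicate 3 of young Marf-mut, para stood at 0.20, Ih at 0.15, Shab at 0.30, Sh at 0.39 and na at 0.65, adjusted p = 0.0955, of which none was called. The same library stood high in long transcripts in general. The long-transcript index was -0.01, -0.12 and 0.14 in the young Marf-mut libraries and -0.30, -0.03 and -0.08 in young Cas9, in replicate order. A fit with the index as a covariate was made for this comparison, and its values are not given here. The part of transcript length was not otherwise tested.

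In old Marf-mut no member was called against old Cas9, where 4.58% of all genes tested were called, and all 10 overlapped with the control, where 12.1% of all genes tested lay wholly higher and 9.77% wholly lower. None had an unadjusted p under 0.05, where 1215 of all 7090 genes tested did, and DESeq2 called no member. The largest values were na at 0.30 (SE 0.20) and Shaw at -0.19 (SE 0.13). Between old and young Marf-mut no member was called by edgeR or DESeq2, where 3.39% of all genes tested were called. An unadjusted p under 0.05 was reached by 2 members and by 1116 of all 7204 genes tested. There na stood at 65.5, 70.9 and 66.7 CPM in old flies, wholly below the young libraries (-0.48, SE 0.14, adjusted p = 0.0819), and Irk1 at 29.2, 45.3 and 31.1 CPM against 22.4, 23.8 and 18.0, wholly above (0.74, SE 0.23, adjusted p = 0.0989), where 8.47% of all genes tested lay wholly lower and 12.5% wholly higher. Without replicate 3 of young Marf-mut, Ih was called higher in old flies (0.31, adjusted p = 0.0430), against 0.14 with it, while na stood at -0.32, adjusted p = 0.199, and Irk1 at 0.61, adjusted p = 0.143. All 6 glial markers had positive values between the same groups, of which 2 were called, alrm (0.97, SE 0.16, adjusted p = 0.00151) and Gat (0.80, SE 0.21, adjusted p = 0.0401). Their sum was 214 to 283 CPM in old and 111 to 154 in young Marf-mut. The clock neuron markers summed to 16347 to 20620 CPM in old and 8118 to 11067 in young Marf-mut, also without overlap. The neuronal markers (1719 to 1789 against 1685 to 1817 CPM) and those of other peptide neurons (677 to 4935 against 3170 to 3648) overlapped. The part of cell makeup was not tested here. The difference of the Marf-mut effect between ages called no member, where 0.284% of all genes tested were called, and DESeq2 called none. Its values were negative for 9 of the 10 members (8 with scaling by total count), with a median of -0.17 against 0.01 for all genes tested. At an unadjusted p under 0.05 were 2 members, Shab (-0.42, SE 0.15, adjusted p = 0.288) and Sh (-0.38, SE 0.15, adjusted p = 0.365), and 763 of all 7385 genes tested.

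Drp1-mut differed from Cas9 in no member at the threshold. None was called in young flies, where 0.0831% of all genes tested were called, and none in old flies, where 0.394% were. No member had an unadjusted p under 0.05 in either comparison by edgeR. Among all genes tested 357 of 7220 did in young and 514 of 6847 in old flies. DESeq2 called no member in either, and all 10 members overlapped between the groups at both ages. Of all genes tested 4.13% lay wholly higher and 5.86% wholly lower in young Drp1-mut, and 5.56% and 7.35% in old Drp1-mut. Irk1 had the largest value at both ages, at 37.3, 40.8 and 26.6 CPM in young Drp1-mut (0.47, SE 0.23, adjusted p = 0.997) and 47.2, 31.2 and 43.9 in old Drp1-mut (0.38, SE 0.25, adjusted p = 0.804). None was called between old and young Drp1-mut, where 0.705% of all genes tested were called, with Ih highest at 0.52, SE 0.29, adjusted p = 0.546. At an unadjusted p under 0.05 were 0 members, where 821 of all 6951 genes tested were, and DESeq2 called 0 members. Nor was any called for the difference of the Drp1-mut effect between ages, in which edgeR called 0% of all genes tested (0 of 7256, with 260 at an unadjusted p under 0.05, and 3 called by DESeq2). No member had an unadjusted p under 0.05 there and DESeq2 called none.

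Replicate 3 of old Drp1-mut held Ih at 659 CPM against 332 and 346 in the other two and para at 459 against 207 and 282. Without it the old Drp1-mut values were -0.23 for para, -0.12 for Ih and -0.33 for Shab, against 0.14, 0.28 and -0.03 with it, none of them called. Between old and young Drp1-mut, Ih was 0.13 and para -0.05 without it, against 0.52 and 0.31 with it. Its long-transcript index was 0.23, the highest of all libraries.

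In the Cas9 control, all 10 members had a positive value between old and young flies, with a median of 0.15 against 0.00 for all genes tested. With scaling by total count 5 were positive, and the median of all genes moved to -0.12. Without replicate 2 of old Cas9 the median of the members was 0.28. None was called by edgeR or DESeq2 in the fit without pairing, where 2.45% of all genes tested were called. An unadjusted p under 0.05 was reached by 3 members and by 1092 of all 7089 genes tested, 698 of them higher. Ih stood at 380.5, 347 and 384 CPM in old and 303, 299.9 and 317 in young Cas9, without overlap (0.32, SE 0.09, adjusted p = 0.0862). Shab stood at 293, 317 and 353 CPM in old and 255, 263 and 272 in young Cas9, also without overlap (0.33, SE 0.10, adjusted p = 0.106). Here libraries of the same number deviated together, though no label names a shared batch and the pairing was read from these same data. With the replicate number as a block Ih and Shab were both called higher in old flies (0.32, adjusted p = 0.0359 for Ih and 0.33, adjusted p = 0.0366 for Shab). Both calls rest on that pairing. The share of all genes called under the block is not given here, so the 2 calls are no result particular to the members. By overlap, 2 members lay wholly higher, where 9.31% of all genes tested did. Para was the third (0.24, SE 0.10, adjusted p = 0.242), with 1 old library level with the highest young one. Markers of other peptide neurons summed to 8101 to 8609 CPM in old and 2534 to 7181 in young Cas9, without overlap. Those of neurons (1722 to 1982 against 1602 to 1729.9), clock neurons (13702 to 15646 against 10163 to 17225) and glia (105 to 229 against 138 to 203) overlapped. The part of cell makeup in these values was not tested.

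With each suspension as a single value and age and genotype as terms, no member was called in any mutant, where 0.138% of all genes tested were called for Drp1-mut, 0.103% for Marf-mut and 0.609% for Opa1-mut. Irk1 had the smallest p of the members in Opa1-mut (log2 fold change 0.79, SE 0.19, adjusted p = 0.143, unadjusted p = 0.00288). It was called when the filter on low counts was left off and when the old Opa1-mut suspension was left out. In the same fit Shaw stood at -0.39, SE 0.11, adjusted p = 0.204 and Ih at -0.34, SE 0.11, adjusted p = 0.280. For Marf-mut na stood at 0.57, SE 0.17, adjusted p = 0.469. At an unadjusted p under 0.05 were 3 members in Opa1-mut, 2 in Marf-mut and 0 in Drp1-mut. Of all 8707 genes tested, 1042 were in Opa1-mut, 567 in Marf-mut and 411 in Drp1-mut. DESeq2 called no member in any mutant.

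Other genes of the same machinery were read from 5 lists of 42 genes (other sodium and calcium pores, other potassium pores, auxiliary and anchoring subunits, the sodium pump and chloride channels), of which 41 are in the table. In old Opa1-mut 11 of the 39 tested were called (28.2%, where 13.2% of all genes were called and 5.65% were called lower), all lower, with a median of -0.25. They were 5 of 17 auxiliary genes, 2 of 11 potassium pores, 2 of 4 sodium pump genes, 1 of 3 sodium and calcium pores and 1 of 4 chloride channels. The 4 with the smallest p were qvr, whose product regulates Shaker channels (443 against 605 CPM, log2 fold change -0.46, SE 0.10, adjusted p = 0.00191), Rdl, a GABA-gated chloride channel (-0.43, SE 0.10, adjusted p = 0.00463), dysc, a scaffold that binds slo channels (-0.48, SE 0.12, adjusted p = 0.0103), and sei, an ERG-type potassium channel (-0.56, SE 0.15, adjusted p = 0.0129). In old against young Opa1-mut 6 of 38 were called (15.8%, where 12.4% of all genes were called and 4.78% were called lower), all lower, led by Atpalpha, the catalytic subunit of the sodium pump (-0.42, SE 0.08, adjusted p = 0.00210), unc80, a partner of the na leak channel (-0.47, SE 0.09, adjusted p = 0.00287), Mid1, also named Nlf-1, which helps to localize that channel (-0.45, SE 0.10, adjusted p = 0.00445), and Ca-alpha1T, a low-voltage calcium channel (-0.46, SE 0.11, adjusted p = 0.0102).

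For the Opa1-mut effect between ages 3 of 39 were called (7.69%, where 5.63% of all genes were called and 3.27% were called lower), all lower, Mid1 (-0.70, SE 0.16, adjusted p = 0.0120), Ca-alpha1T (-0.60, SE 0.18, adjusted p = 0.0478) and Hk, the beta subunit of Shaker channels (-0.56, SE 0.17, adjusted p = 0.0491). In old Marf-mut 1 of 39 was called (2.56%, against 4.58% of all genes), the sodium pump subunit gene nrv1, which fell from 79.4 to 41.2 CPM (-0.97, SE 0.18, adjusted p = 0.00147). Between old and young Marf-mut 2 of 39 were called (5.13%, against 3.39% of all genes). Elk, a potassium channel of the ether-a-go-go family, fell (-0.71, SE 0.18, adjusted p = 0.0391) and Irk2, an inward rectifier, rose (0.87, SE 0.22, adjusted p = 0.0427). None of the list was called in young Drp1-mut, young Marf-mut, young Opa1-mut, old Drp1-mut, the age comparisons of Cas9 and Drp1-mut, or the suspension fits. Over the 8 groups 10 of 39 were called, near the share of 22% of all genes.

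**Figure D4:**
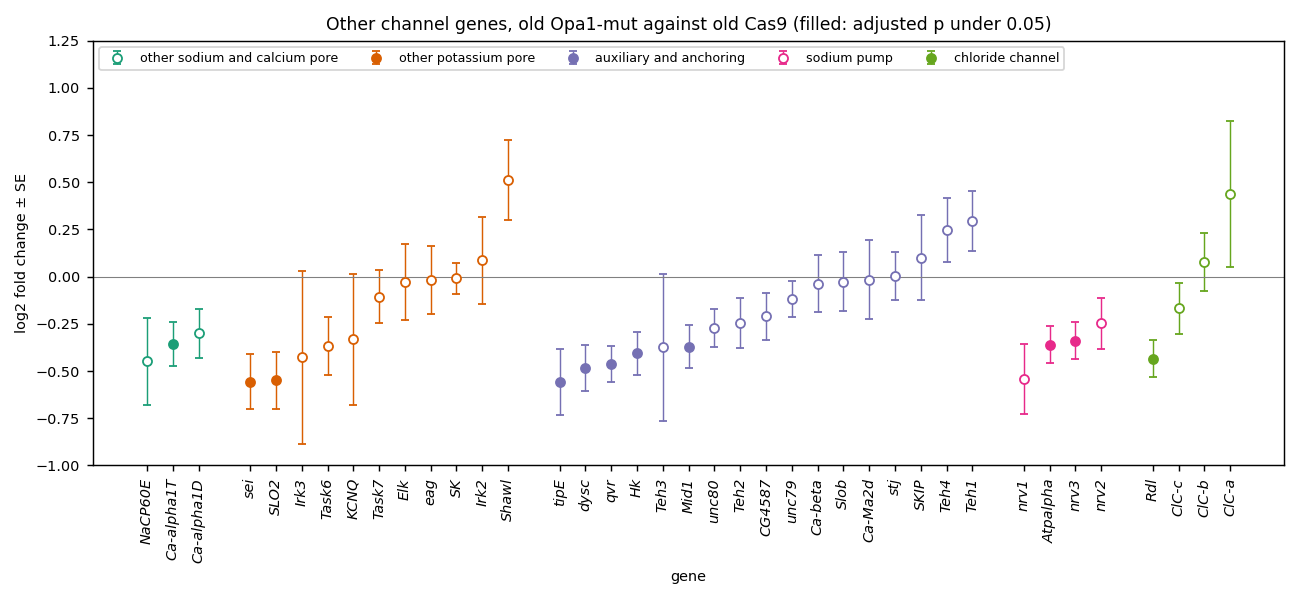
Log2 fold change of the other channel genes (points, by list; bars, ± 1 SE) in old Opa1-mut against old Cas9; filled points mark adjusted p under 0.05. The 11 called genes all lie below 0, between -0.34 for nrv3 and -0.56 for tipE.

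The 45 pairs of members had Pearson correlations of log2 CPM over the 24 libraries from -0.51 to 0.85, with a median of 0.41, and 10 were negative, all 9 pairs with Irk1 (-0.51 to -0.01) and that of Sh with Shaw (-0.02). These points share depth, suspensions and groups and are given as a description. Among genes of at least 20 CPM, the 2 most like para were CG31687 (r = 0.86) and Ih (0.85), and those most like Ih were bin3 (0.85) and para. Shab was most like para (0.81) and qvr (0.79). For na they were CG7381 (0.88) and Sdic2 (0.78), and for cac bwa (0.72) and CG13366 (0.71). Sh was most like kdn (0.80) and Taf1 (0.75), Shal like Prp3 (0.91) and slgA (0.82), Shaw like CkIalpha (0.80) and CG30122 (0.79) and slo like CG1358 (0.80) and Sur-8 (0.77). Irk1 was most like brat (0.83) and scyl (0.79).

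The level of several members went with the long-transcript index across libraries. Its correlation was 0.64 for Ih, 0.58 for Sh, 0.58 for para, 0.56 for Shab, 0.53 for slo and 0.50 for cac. It was 0.29 for na, 0.22 for Shal, 0.22 for Shaw and 0.10 for Irk1. In old Opa1-mut the index was -0.10, -0.09 and -0.01 in replicate order, and in old Cas9 -0.05, -0.07 and 0.12, so that the groups overlapped. With the index as a covariate para, Ih and Shab were still called lower in old Opa1-mut, while Shaw (-0.47, adjusted p = 0.112) and Irk1 (0.48, adjusted p = 0.128) were not, nor was Irk1 in young Opa1-mut (0.90, adjusted p = 0.227).

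**Figure D5:**
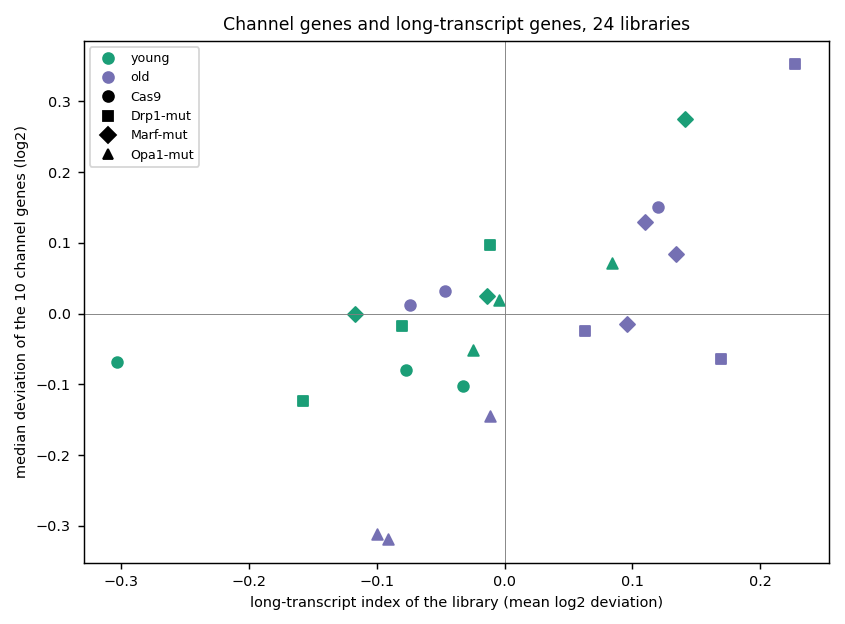
Median log2 deviation of the 10 channel genes from their own means (y axis) against the long-transcript index (x axis, mean log2 deviation of 269 other genes), 1 point per library, coloured by age and shaped by genotype. Replicate 3 of old Drp1-mut has the highest value on both axes (0.23 and 0.35), and the old Opa1-mut libraries have the lowest y values, -0.14 to -0.32, at index values of -0.10 to -0.01.

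The authors' deposited tables of mutant against Cas9 were made with DESeq2 and were compared with the calls above. The authors' deposited table for young Marf-mut called na (0.79, adjusted p = 0.00476) and Sh (0.41, adjusted p = 0.0193), which edgeR did not call here. It called 76 genes in all, where edgeR called 25. For young Opa1-mut the authors' deposited table called Irk1 (1.01, adjusted p = 0.00600), among 219 genes in all, where edgeR called 211. For old Opa1-mut the authors' deposited table called para (-0.61, adjusted p = 0.0435) and not Shab (-0.50, adjusted p = 0.0520), Shaw (-0.52, adjusted p = 0.124), Ih (-0.47, adjusted p = 0.165) or Irk1 (0.59, adjusted p = 0.219). Its calls came to 637 genes, where edgeR called 939. The authors' deposited tables for Drp1-mut at both ages and for old Marf-mut called 0 members. They called 18 genes in young Drp1-mut, 43 in old Drp1-mut and 199 in old Marf-mut.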

How the data were processed

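Counts are whole UMIs per gene and library as deposited, unnormalized per the labels, from Smart-seq3 libraries of about 750 pg of cDNA. STAR, the dm6 build and DESeq2 are what the authors used for alignment and group comparisons, per the submitters' processing notes, with versions, annotation, UMI counter and use of strand not given in the sources used here. In the authors' deposited tables fold changes are log2 values, and p-values and adjusted p-values are theirs, per the file headers. Their remaining columns (mean level, standard error, test statistic) are a score each in the deposited tables and were not tested.

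Tests ran in R 4.3.3 with edgeR 4.0.16, as quasi-likelihood F tests (TMM scaling, filterByExpr by group, robust dispersions), fitted on the groups compared, with Benjamini-Hochberg adjustment over all genes tested and calls under 0.05. The SE equals the absolute log2 fold change over the root of F. Levels were taken as CPM scaled by TMM over all 24 libraries, as mean ± SD. The steps were tested on simulated data. There were 17 comparisons: 6 of a mutant with Cas9, 4 of age, 3 interactions, 3 on counts summed per suspension with 3 residual degrees of freedom, and 1 over all 8 groups. P-values between libraries measure the spread between sorted pools of a suspension.

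Replicate numbers were taken to pair libraries in 1 of 10 comparisons, old against young Cas9. There the deviations of same-numbered libraries from their group means correlated in all 3 pairs (0.24, 0.11 and 0.14, each over 0.1). In old against young Opa1-mut every library also correlated best with its own number, but at 0.07, 0.04 and 0.06. The pairing was read from the same data as the tests. No label says that a number marks a shared batch. Each result was recomputed with total count scaling, with size factors of DESeq2, without a filter on low counts, with DESeq2 1.42.0 as the test, with all 24 libraries in a single fit, with a replicate block, with log2 depth as a covariate and on leaving out each library or suspension. The long-transcript index was chosen after seeing the data. Where an omission leaves 2 libraries in a group, these are assumed to vary as in other groups.

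The members and lists were chosen with earlier results of these data known. All members are named, with the 4 called genes of the smallest p among the other channel genes and the 2 most correlated genes for each member. Genes placed by the Ensembl release 115 annotation of release 6 are given with its coordinates. One listed channel gene, galene, was not matched to the table. No sequences are given, since none were used here.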

Additional observations from a re-analysis of the deposited data

Results flagged for a closer look

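The effect of Opa1-mut on Shab, the delayed rectifier potassium channel gene, differed between the ages by -0.66 on the log2 scale (old minus young, SE 0.13, adjusted p = 0.00512, edgeR over 12 libraries), which was a test of the difference itself. All 3 young Opa1-mut libraries lay above young Cas9 (278, 294 and 297 against 255, 263 and 272 CPM), and all 3 old ones below old Cas9 (237, 211 and 243 against 293, 317 and 353 CPM). The young difference was not called on its own (0.17, SE 0.09, adjusted p = 0.357). Shab in Cas9 was itself higher in old than in young libraries, which enters the difference, and each of the 4 groups is a single suspension.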

How the results depend on the processing

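No direction reversed among the members with an unadjusted p under 0.05, and the limits are depth (22 to 1078 UMIs per member and library) and a single suspension per group. Members called are given in order as a count under the setting against the count of the report. Without the filter on low counts, 1 was called in young Marf-mut against Cas9 (0), 1 between old and young Marf-mut (0), 4 between old and young Opa1-mut (2), 2 for the Opa1-mut effect between ages (1) and 1 in the Opa1-mut suspensions (0). DESeq2 called 1 in young Marf-mut (0), 3 in old Opa1-mut (5) and 2 for the Opa1-mut effect between ages (1). All 24 libraries in a single fit called 2 in young Marf-mut (0), 1 in old Opa1-mut (5), 1 between old and young Opa1-mut (2) and 0 for the Opa1-mut effect between ages (1). Log2 depth as a covariate called 2 in young Marf-mut (0), 0 in young Opa1-mut (1), 2 in old Opa1-mut (5), 2 between old and young Marf-mut (0), 1 between old and young Opa1-mut (2) and 0 for the Opa1-mut effect between ages (1). The long-transcript index, added after seeing the data, called 0 in young Opa1-mut (1), 3 in old Opa1-mut (5), 3 between old and young Marf-mut (0), 0 between old and young Opa1-mut (2), 0 for the Opa1-mut effect between ages (1) and 2 over the 8 groups (4). The share of all genes called under each setting is not given beside these counts or those on leaving out libraries. A moved count is therefore no result particular to the members. The cause of these moves was not tested.

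With the replicate number as a block, 2 members were called between old and young Cas9 (0), the 1 comparison taken as paired from these same data. In young Marf-mut against Cas9, not taken as paired, the block called 1 (0), na at 0.81, adjusted p = 0.00831. In old Opa1-mut slo passed at -0.29, adjusted p = 0.0269, and between old and young Opa1-mut slo passed at -0.39, adjusted p = 0.0367. In the other comparisons the count under the block stayed within 1.5 times that of the report. The share of all genes called under the block is not given beside these counts either. Over the 10 comparisons of libraries the correlations of same-numbered libraries were -0.21 to 0.24, and 11 of 30 pairs correlated best with their own number.

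Leaving out 1 library at a time called 0 to 2 members in young Opa1-mut, 3 to 4 in old Opa1-mut, 0 to 1 between old and young Marf-mut, 1 to 3 between old and young Opa1-mut, 1 to 2 for the Opa1-mut effect between ages and 2 to 5 over the 8 groups, and leaving out 1 suspension 0 to 1 for Opa1-mut. Counts over all genes moved too, with 202 to 1093 called in old Opa1-mut (939), 19 to 594 in young Opa1-mut (211) and 0 to 364 between old and young Cas9 (174) over the settings that keep every library.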
